A study of Mus musculus with 36 samples.

Results

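The regions described here are 114 open chromatin peaks that gained accessibility after 1 h of BDNF, had lost the gain by 10 h, and showed no such gain at any time of KCl. They were 114 of 40667 peaks with a mean count of at least 20 per library, out of 58177 peaks in the series. Members were chosen by their own read counts. Counts were turned into CPM, the reads of a peak scaled to a fixed library total, and each stimulated group was set against the 6 control libraries as a log2 ratio with 0.5 CPM added to both sides, minus the median ratio over the 40667 peaks. A member had a ratio of at least 1 at BDNF 1 h, below 0.4 at BDNF 10 h, and below 0.5 at KCl 1 h, 6 h and 10 h, with no lower limit at BDNF 10 h or KCl. The ratios at BDNF 1 h, BDNF 10 h and KCl are therefore a description of the choice and carry no test.

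Cortical neurons of CD-1 mouse embryos (embryonic day 15, tissue of all embryos pooled) were grown for 7 days in culture and silenced for 2 h with 100 µM AP-5, which blocks NMDA receptors, and 1 µM TTX, which blocks sodium channels. They then received BDNF (10 ng/ml) or KCl (55 mM) for 1, 6 or 10 h, while controls had the 2 blockers throughout and were collected in parallel, after 3, 8 and 12 h of blockers in all. ATAC-seq, which reads open chromatin from transposase insertions, and RNA-seq were each made in 18 libraries, 2 for each of 9 groups, called A and B here as names only. The study describes the libraries of a group as biological replicates. The labels do not say whether they came from separate cultures, so p-values measure the spread between these libraries, which may be technical in part.

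BDNF is a secreted neurotrophin that binds the receptor tyrosine kinase TrkB, encoded by Ntrk2, and signals through Ras and the MAP kinases to the nucleus. There it switches on immediate early genes, many of which encode transcription factors: the FOS and JUN proteins, which pair as AP-1, and the EGR zinc-finger proteins, whose activity is restrained by the NAB corepressors. KCl depolarises the membrane and lets calcium in, which reaches many of the same genes by another route. Open chromatin is where such factors can reach DNA, and distal open elements often include enhancers.

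Sequences of 7 members are shown because they carry the motifs that the results turn on, or none of them. Each is the central 200 bp of the peak on the plus strand of GRCm38 from RefSeq, and capitals mark matches to the 21 motifs searched. The first, at chr16:22790064-22790263, belongs to the member with the highest ratio at BDNF 1 h and holds 3 GTGGGNG words side by side, 2 of them overlapping. The second, at chr13:59073723-59073922, lies in an intron of Ntrk2 and holds 2 of these words around a C/EBP match (TTGCNNAA).
intergenic, 21.4 kb from Crygs: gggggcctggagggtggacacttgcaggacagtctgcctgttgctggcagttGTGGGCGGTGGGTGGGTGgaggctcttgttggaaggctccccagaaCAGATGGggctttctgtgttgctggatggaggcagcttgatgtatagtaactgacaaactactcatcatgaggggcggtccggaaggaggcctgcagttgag
Ntrk2 intron: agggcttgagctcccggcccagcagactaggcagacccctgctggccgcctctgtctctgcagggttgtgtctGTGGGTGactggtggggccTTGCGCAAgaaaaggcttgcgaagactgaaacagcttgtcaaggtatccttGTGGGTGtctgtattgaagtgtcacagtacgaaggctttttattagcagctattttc
The next pair lies in introns of Tmcc3 (chr10:94523646-94523845) and Baiap2 (chr11:119991346-119991545). The Tmcc3 window holds 1 GTGGGNG word, and the Baiap2 window holds 2 AP-1 words (TGANTCA) beside GTGGGNG words on the minus strand, CAGCTG E-boxes and a CTCF match.
Tmcc3 intron: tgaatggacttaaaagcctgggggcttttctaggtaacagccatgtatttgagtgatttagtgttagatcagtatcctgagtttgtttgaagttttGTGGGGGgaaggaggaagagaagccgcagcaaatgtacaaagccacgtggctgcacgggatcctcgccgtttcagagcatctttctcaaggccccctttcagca
Baiap2 intron: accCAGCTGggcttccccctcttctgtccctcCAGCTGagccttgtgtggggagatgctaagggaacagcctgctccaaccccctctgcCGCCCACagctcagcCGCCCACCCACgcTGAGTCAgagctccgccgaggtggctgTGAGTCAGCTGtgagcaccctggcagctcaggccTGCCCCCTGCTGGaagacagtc
The S100a3 window (chr3:90585679-90585878) pairs 2 AP-1 words with a GTGGGNG word and a CTCF match, whereas the window in a Prkar2b intron nearest to Hbp1 (chr12:31983890-31984089) holds a lone AP-1 word.
S100a3 intron: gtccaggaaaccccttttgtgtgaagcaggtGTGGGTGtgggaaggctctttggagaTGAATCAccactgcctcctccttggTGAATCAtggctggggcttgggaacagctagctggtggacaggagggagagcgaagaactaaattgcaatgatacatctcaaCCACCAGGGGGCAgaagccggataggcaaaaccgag
Prkar2b intron: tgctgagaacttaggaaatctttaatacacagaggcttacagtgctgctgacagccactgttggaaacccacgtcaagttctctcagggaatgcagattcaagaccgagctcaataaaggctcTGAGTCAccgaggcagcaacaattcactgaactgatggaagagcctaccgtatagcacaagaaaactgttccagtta
The window in a Bach1 intron (chr16:87706292-87706491) holds no match to any motif searched.
Bach1 intron: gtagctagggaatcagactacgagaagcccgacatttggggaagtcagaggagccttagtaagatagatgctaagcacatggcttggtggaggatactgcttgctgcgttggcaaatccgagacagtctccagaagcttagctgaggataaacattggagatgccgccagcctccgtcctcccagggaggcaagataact

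The median control level of members was 7.00 CPM, against 11.3 CPM over all kept, 5.39 CPM over lasting and 3.19 CPM over shared peaks, and their mean count per library had a median of 32.7 (20 to 167). ATAC libraries held 1.24 to 6.24 M reads in peaks, the lowest being a KCl 6 h library in which a member had a median count of 8. RNA libraries held 8.51 to 36.7 M reads. Counting error therefore enters every ratio given below, and single members are less firm than the group. In the RNA of these cultures all 9 neuronal markers were present, among them Tubb3, Map2 and Rbfox3. Markers of other cells were also present. The astrocyte markers, 4 of 4, summed to 8835 to 11817 scaled counts in the control libraries and 10670 to 11255 at BDNF 1 h. Slc1a3 held most of that sum, with a mean of 8616 over all 18 libraries, against 204 for Gfap, 458 for Aqp4 and 480 for Aldh1l1. The progenitor markers, 4 of 4, summed to 6331 to 8906 in controls and 7270 to 7525 at BDNF 1 h. The 5 markers of the oligodendrocyte lineage summed to 6250 to 6506 at BDNF 1 h and 5757 to 6204 in controls, which did not overlap, and the progenitor markers were lower at BDNF 6 h and 10 h, at 5666 to 5945. With KCl, oligodendrocyte lineage markers summed to 4280 to 4844 at 1 h and 6517 to 7191 at 6 h and 10 h, astrocyte markers to 7024 to 8300 at 6 h and 10 h and progenitor markers to 4943 to 5424 at those times, all outside the control range. Microglial markers summed to 50.1 to 90.9 and endothelial ones to 4.52 to 28.1 over all libraries. Their part in the ATAC values was not tested, and in such bulk samples fewer cells of a type and less signal per cell cannot be told apart.

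The choice fixed the course at 1 h and 10 h of BDNF and with KCl, and 6 h lay in between. The median ratio was 1.20 at BDNF 1 h (1.01 to 2.31), 0.46 at BDNF 6 h (-0.43 to 1.33) and 0.11 at BDNF 10 h (-0.67 to 0.40). It was 0.05 at KCl 1 h (-1.33 to 0.49), -0.06 at KCl 6 h (-1.17 to 0.49) and 0.04 at KCl 10 h (-1.22 to 0.50), so some members were well below the controls with KCl. Set library by library, the members summed to 2442 and 2409 CPM at BDNF 1 h, against 982 to 1068 CPM in the 6 controls. The sums of 1364 and 1333 CPM at BDNF 6 h still exceeded every control library. Those at BDNF 10 h, 1066 and 1122 CPM, overlapped the controls. The 6 KCl libraries summed to 933 to 1147 CPM. Both BDNF 1 h libraries lay above all 6 controls in 112 of 114 members, as they did in 12.5% of all kept peaks; the rule used these values, so nothing is read from the count.

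**Figure D1:**
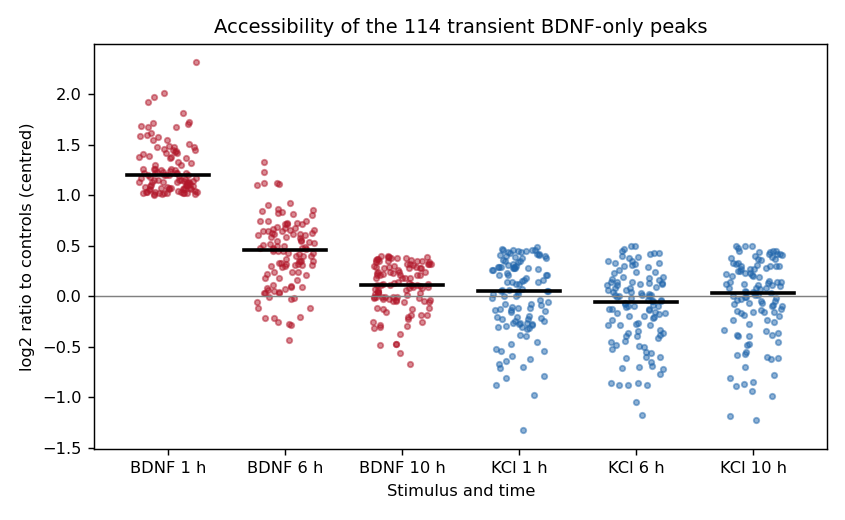
Centred log2 ratio of accessibility to the 6 controls (y axis) for the 114 members (points) in each stimulated group (x axis), with the median as a black bar. The median goes from 1.20 at BDNF 1 h to 0.46 at 6 h and 0.11 at 10 h, and lies between -0.06 and 0.05 with KCl. The ratios of all groups but BDNF 6 h were used to choose the members.

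**Figure D2:**
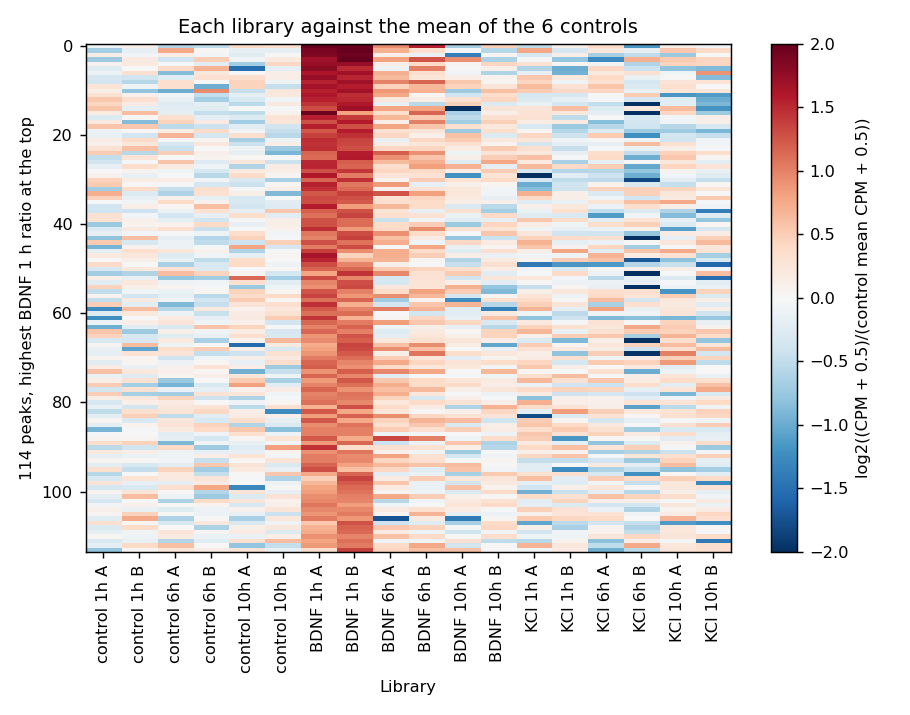
Log2 ratio of each member (rows) in each of the 18 libraries (columns) to the mean of the 6 controls, red for higher and blue for lower, with 0.5 CPM added. Both BDNF 1 h libraries are red in nearly all rows, both BDNF 6 h libraries are paler, and the dark blue cells in KCl 6 h B fall in the library with the lowest depth.

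Few of the peaks opened by BDNF at 1 h met all conditions. Of 2954 peaks with a ratio of at least 1 at BDNF 1 h, 298 were below 0.4 at BDNF 10 h and 432 were below 0.5 at every KCl time. Of these 432 peaks opened by BDNF only, 114 were the members, 171 still had a ratio of at least 0.8 at BDNF 10 h and are called lasting here, and 147 lay in between. A further 918 peaks had a ratio of at least 1 at BDNF 1 h and of at least 0.8 at KCl 1 h, and are called shared. The edges of the choice were close. Just inside the BDNF 1 h limit were peaks at 1.01 and 1.01, near Chrm3 and Nkrf, and the nearest peaks left out were at 1.00 and 1.00, near Gm15217 and Hic1. Just inside the BDNF 10 h limit were 0.396 and 0.394, near Hbp1 and Prkce, and just outside 0.402, near Map7. At the KCl limits the nearest values inside were 0.492 and 0.467 at 1 h, 0.495 and 0.495 at 6 h, then 0.4998 and 0.496 at 10 h, and outside 0.535 and 0.540, 0.524 and 0.533, and 0.504 and 0.515. No test separates neighbours on the 2 sides of a limit. When each condition was set against the 2 controls of its own time in place of all 6, 195 peaks met the rule, of which 62 were members.

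Since the choice used the values of the same libraries, it was repeated with 1 library per group and read in the other. Chosen in libraries A alone, 140 peaks met the rule. In libraries B their median ratio was 1.09 at BDNF 1 h, 0.36 at BDNF 6 h and 0.31 at BDNF 10 h. With KCl it was -0.06, -0.15 and -0.09 at KCl 1 h, 6 h and 10 h. A ratio of at least 1 at BDNF 1 h was met in libraries B by 79 of the 140 (56.4%), against 7.78% of all kept peaks. Chosen in libraries B, 148 peaks met the rule, and in libraries A their median ratio was 1.00 at BDNF 1 h, 0.45 at BDNF 6 h and 0.29 at BDNF 10 h, with 78 of 148 (52.7%) at 1 or more, against 7.48% of all kept peaks. With KCl the medians in libraries A were 0.07, 0.09 and 0.23 at 1 h, 6 h and 10 h, of the other sign than in libraries B, and at KCl 10 h 13 of 148 (8.78%) were at 1 or more, against 5.67% of all kept peaks. The gain at BDNF 1 h thus recurred in libraries whose ratios had no part in the choice. Their counts did enter the minimum mean count of 20, taken over all 18 libraries, so the recurrence is not fully independent. The return by 10 h was less complete in them than in the libraries that chose the peaks. At BDNF 10 h 105 of 140 (75.0%) and 110 of 148 (74.3%) were above 0, and 15 (10.7%) and 18 (12.2%) were at 1 or more. Of all kept peaks 5.71% and 6.70% were at 1 or more. The whole rule was met again by 22 of 140 peaks (15.7%, against 0.364% of all kept peaks) and by 22 of 148 (14.9%, against 0.344%). Which single peaks belong to the set is therefore much less firm than the gain of the set at BDNF 1 h. The return of the set by 10 h was also less firm than that gain.

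The ratio at 6 h of BDNF had no part in the rule, although the 6 controls did. The BDNF 6 h libraries did count towards the minimum mean count, which was taken over all 18 libraries. By edgeR's quasi-likelihood test over 56383 peaks (Benjamini-Hochberg adjusted p below 0.1), 16 of 114 members (14.0%) were higher at BDNF 6 h than in controls and 0 were lower. Of all tested peaks 8.88% were higher and 1.75% lower. Tested peaks had a mean count of at least 10, a lower limit than the 20 of members, and the share over kept peaks is not given here. At an unadjusted p under 0.05, 33 members were higher (28.9%) and 0 lower, against 11.6% of all tested peaks higher. DESeq2 called 13 members higher, and its share over all peaks is not given here. The median log2 fold change of the members was 0.42, against -0.04 over all tested peaks. Without BDNF 6 h library A 5 members were called higher, and without library B 6 were. To keep the tested controls out of the ratios of the choice, members were chosen again with ratios to the controls of 1 h and 10 h only. BDNF 6 h was then tested against the 2 controls of 6 h. The minimum mean count still used all 18 libraries, so the 6 h libraries had a part in which peaks could be chosen. Of 109 peaks so chosen, 72 of them members, 9 were called higher (8.26%) and 0 lower, against 6.5% of all tested peaks higher. At an unadjusted p under 0.05, 31 were higher (28.4%), against 10.3% of all tested peaks, and the median log2 fold change was 0.52 against -0.02. Without BDNF 6 h library A, B or control 6 h library B, 4, 5 and 5 were called. The share of calls was thus near that of all peaks, while 88 of the 109 had a log2 fold change above 0 (80.7%, against 47.8% of all tested). Among 170 lasting peaks chosen the same way, 111 were called higher (65.3%) with a median of 1.29.

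**Figure D3:**
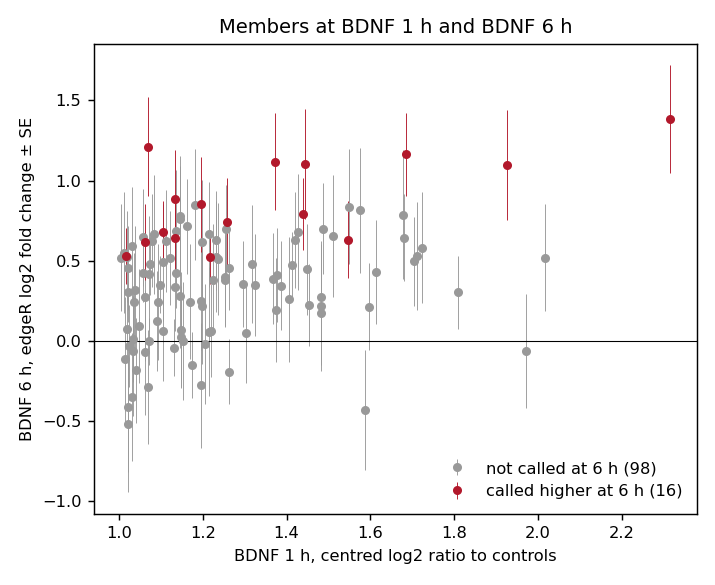
Centred log2 ratio at BDNF 1 h (x axis) against the edgeR log2 fold change at BDNF 6 h with its SE (y axis) for the 114 members. Red points are the 16 called higher at 6 h and grey points the other 98. Of all 114 points 97 lie above 0, and bars reach 1 SE to each side.

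The strongest member lay between genes on chromosome 16 (chr16:22789944-22790384, 21.4 kb from the start of Crygs, a lens crystallin gene). Its control level was 2.66 to 5.77 CPM with a median of 4.35, and its libraries held 21.7 and 22.4 CPM at BDNF 1 h, 8.63 and 13.4 at 6 h, then 2.47 and 6.12 at 10 h. Both 1 h and both 6 h libraries were above every control, and those of 10 h were not. At BDNF 6 h the log2 fold change was 1.38 ± 0.34 (SE; edgeR adjusted p = 0.00145), which was lost without library B (1.00, adjusted p = 0.293). Its window holds the run of GTGGGNG words shown above.

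The second strongest lay in an intron of Syn2, which encodes the vesicle protein synapsin 2 (chr6:115221272-115221703, nearest start Gm17482 at 5.86 kb). Controls ran from 3.32 to 9.84 CPM with a median of 4.95, BDNF 1 h held 22.2 and 24.0 CPM, and BDNF 6 h 9.46 and 7.21. The 6 h libraries lay inside the control range, as did the 10 h libraries at 5.44 and 3.60 CPM. A member in an intron of Celf4, on chromosome 18, which encodes an RNA-binding protein of neurons, held 23.0 and 24.2 CPM at BDNF 1 h against 4.95 to 6.65 in controls (median 5.86). It was back at 6.40 and 5.32 CPM by 6 h, so its rise was over earlier than that of the chromosome 16 member.

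The receptor gene of BDNF itself held a member. The peak at chr13:59073479-59074167 lies in an intron of Ntrk2, 265 kb from its start, and overlaps the gene 4930415C11Rik. It held 8.24 to 18.4 CPM in controls (median 14.1), 47.1 and 47.2 CPM at BDNF 1 h, 15.0 and 18.02 at 6 h, then 14.3 and 18.7 at 10 h. Both libraries of BDNF 1 h were above every other library of the series at this peak, and KCl 1 h held 17.0 and 14.1 CPM. At BDNF 6 h the difference from controls was 0.30 ± 0.23 (SE; edgeR adjusted p = 0.556). Ntrk2 was the only gene of the 6 lists of the pathway and of early response genes used here that was nearest to a member.

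Among the 10 strongest members, 4 more lay in introns of genes with varied roles. In S100a3, an S100 calcium-binding protein gene (chr3:90585627-90585931), controls held 2.65 to 6.83 CPM (median 4.98), BDNF 1 h 16.2 and 20.8, and BDNF 6 h 8.63 and 12.0. The 6 h libraries were both above the controls, with a log2 fold change of 1.10 ± 0.35 (SE; edgeR adjusted p = 0.0251). In Dgkz, a diacylglycerol kinase gene (chr2:91957088-91957380), controls held 1.65 to 9.40 CPM (median 5.27) and BDNF 1 h 20.9 and 16.7. In Ppp2r2c, which encodes a regulatory subunit of the phosphatase PP2A (chr5:36869548-36870208), controls held 6.61 to 11.5 CPM (median 8.60) and BDNF 1 h 31.1 and 26.5. The peak in Tmcc3, which encodes a membrane protein of the endoplasmic reticulum (chr10:94523404-94524088), held 5.43 to 11.5 CPM in controls (median 8.00), 25.1 and 28.1 at BDNF 1 h, then 17.0 and 19.2 at 6 h. It was higher at BDNF 6 h by 1.16 ± 0.26 (SE; edgeR adjusted p = 0.000418). The other 2 of the strongest members were in an intron of Lrrc1, 74.0 kb from its start, and at the promoter of Hrasls5, with ratios of 1.71 and 1.68 at BDNF 1 h.

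The course between 1 h and 10 h differed between members. The highest ratios at BDNF 6 h were 1.33 at the chromosome 16 member, 1.23 at chrX:77734212-77734601, 61.6 kb from Prkx, a protein kinase gene, and 1.13 in Tmcc3. Near Prkx, BDNF 1 h held 15.4 and 10.99 CPM, BDNF 6 h 16.7 and 13.2, and controls 4.84 to 7.75 (median 6.60), so this peak was no lower at 6 h than at 1 h. The lowest ratios at BDNF 6 h were -0.43 at chr5:118269072-118269313 (24.0 kb from 2410131K14Rik), where the edgeR log2 fold change of -0.52 became 0.12 without BDNF 6 h library A, -0.29 in Ssbp3 and -0.28 in Gse1. In Ssbp3 (chr4:106996614-106997090) BDNF 1 h held 17.8 and 20.0 CPM, and BDNF 6 h 5.56 and 4.12, inside the control range of 4.12 to 8.62 or at its lower edge. The edgeR test did not call any of these 3 lowest members at 6 h.

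Members lay mostly away from promoters. A promoter, taken as 1000 bp before to 100 bp after a start site, was overlapped by 19 members (16.7%), against 34.9% of all kept peaks, 7.60% of lasting and 5.56% of shared peaks. Introns held 57 (50.0%, against 29.3% of all kept peaks), exons 4 (3.51%, against 4.57%) and intergenic sequence 34 (29.8%, against 31.2%). The median distance to the nearest start of a protein-coding gene was 28.8 kb, against 19.6 kb for all kept, 51.0 kb for lasting and 65.7 kb for shared peaks, and 76 members (66.7%) lay within 50 kb of one, near the 64.8% of all kept peaks. Chromosome 2 held 20 of the members (17.5%) and 7.63% of all kept peaks, and 2 pairs of members, one nearest to Cpne5 and one nearest to Ttc17, lay within 50 kb of each other. Peak width had a median of 393 bp (187 to 1166 bp).

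Promoter members were near genes of several kinds. Among the 8 with the highest ratio at BDNF 1 h were those of Hrasls5 (1.68), Sv2c, a synaptic vesicle protein (1.26), Numbl, a relative of Numb (1.25), Myo1c, an unconventional myosin (1.23), Slc4a11, a membrane transporter (1.22), and Ankrd60 (1.22). The remaining pair were the promoters of Gm25549 inside Mapkapk2, a kinase gene, at 1.48, and of Gm1972 at 1.48. At Sv2c (chr13:96132339-96133085) controls held 15.9 to 26.2 CPM (median 21.6), BDNF 1 h 52.0 and 46.2, and BDNF 6 h 15.3 and 20.1. The Sv2c peak was thus back in or below the control range by 6 h. At Ankrd60 one control library held 12.4 CPM, above BDNF 1 h library B at 10.99, and at Myo1c library A held 23.5 CPM and library B 9.98 at BDNF 1 h.

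The sequence under the members was set beside that of the other peaks opened by BDNF. GC content of the central 200 bp had a median of 54% in members, against 51.5% in all kept, 47% in lasting and 43.5% in shared peaks. The AP-1 word TGANTCA was in 25 of 114 members (21.9%), against 9.92% of all kept, 39.8% of lasting and 76.8% of shared peaks. The word GTGGGNG, part of the site of EGR proteins and called the short EGR word here, was in 53 members (46.5%), against 18.7% of all kept, 40.9% of lasting and 16.2% of shared peaks. Members and lasting peaks held the short EGR word about as often: the 95% exact binomial intervals of their shares, 37.1 to 56.1% and 33.5 to 48.7%, overlapped, and over the central 300 bp the shares were 56.1% and 54.4%. The AP-1 word and the short EGR word met in 8 members, a count given without the share of all kept peaks, so nothing is read from it. The longer EGR word GCGNGGGCG was in 9 members (7.89%), against 3.69%, 1.75% and 0.218%. Over the whole peak it was in 9.65% of members, near the 9.16% of all kept peaks. The KLF/SP word GGGNGGGG, which can overlap the EGR words, was in 26 (22.8%), against 16.3%, 17.0% and 4.68%. All were searched on both strands, and a match is not a bound site.

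The share of members with the short EGR word was also compared with that of all kept peaks of like GC content and position, a comparison not made with lasting peaks. Between the lower and upper quartile of the members' GC content, 28 of 58 members held it (48.3%), against 20.8% of 11959 kept peaks in that range. Outside promoters it was in 46 of 95 members (48.4%), against 15.0% of 26455 kept peaks. AP-1 was in 22 of the 95 (23.2%), against 13.7%. The longer EGR word was in 0 of the 58 members in the same GC range, against 0.619% of kept peaks. Outside promoters it was in 4 of the 95 (4.21%, against 0.571%), and in promoters in 5 of 19 (26.3%, against 9.50%). Of all words of 7 letters, CCCACAC, counted on both strands, had the widest gap between members and all kept peaks. It was in 23 members (20.2%), against 4.13% of all kept peaks. CACCCAC, which is a form of the short EGR word, followed with 21 (18.4%) against 4.54%. Lasting peaks held these words in 15.8% and 19.9%, so neither was particular to members. The words were ranked after their values were seen. The other motifs were rare or near their share in all kept peaks: CAGCTG in 24 (21.1%, against 17.6%), C/EBP in 7 (6.14%, against 9.03%), ETS (CNGGAAGT) in 2 (1.75%, against 4.58%), SRF in 2 (1.75%, against 0.898%) and CRE (TGACGTCA) in 0 (against 0.883%). No motif of the 21 was found in 16 members, among them the Bach1 member shown above. The share of all kept peaks without any motif is not given here, so nothing is read from that count.

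**Figure D4:**
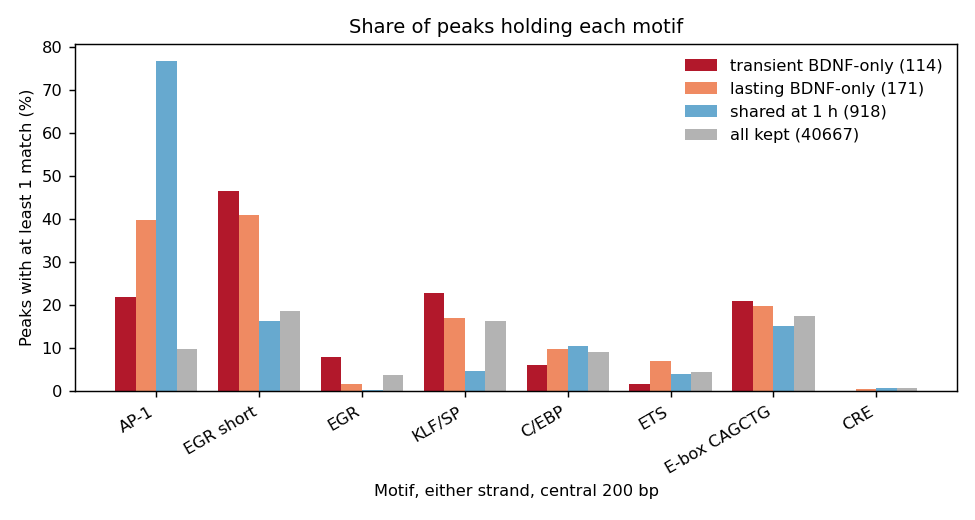
Share of peaks with at least 1 match to each of 8 motifs in the central 200 bp (bars from 0; y axis in percent) for members, lasting BDNF-only, shared and all kept peaks. AP-1 stands at 21.9% of members and 76.8% of shared peaks, and the short EGR word at 46.5% and 16.2%.

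Members with and without the AP-1 word are given side by side, with no test, since the rule bounded most of these ratios. With it (25), the median ratio was 1.13 at BDNF 1 h, 0.53 at 6 h and 0.12 at 10 h, and without it (89) 1.22, 0.45 and 0.11. At KCl 1 h the medians were 0.26 and -0.00. At BDNF 6 h, 5 of the 25 were called higher and 11 of the 89, against 8.88% of all tested peaks. The shares called among all tested peaks with and without the AP-1 word are not given here. The calls are also few, so nothing is read from the difference between these counts.

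The members had 112 nearest protein-coding genes, of which 91 were tested in the RNA by limma (log2 of the scaled count plus 1, adjusted p below 0.1). At BDNF 1 h, 32 of the 91 were higher (35.2%) and 16 lower (17.6%), against 21.3% and 19.0% of all genes tested and 22.1% and 21.6% of the genes nearest to any kept peak. Within 50 kb, 24 of 60 were higher (40.0%) and 9 lower. At BDNF 10 h, 20 were higher (22.0%, against 21.1%) and 26 lower (28.6%, against 19.5%). At KCl 1 h, 31 were higher (34.1%, against 26.5%) and 26 lower (28.6%, against 28.2%). Genes nearest to lasting peaks were higher at BDNF 1 h in 36 of 128 (28.1%), and those nearest to shared peaks in 156 of 633 (24.6%). At BDNF 6 h 29 were higher (31.9%, against 22.1%) and 26 lower (28.6%, against 21.1%), at KCl 6 h 35 (38.5%, against 33.4%) and 32 (35.2%, against 33.1%), and at KCl 10 h 27 (29.7%, against 29.0%) and 28 (30.8%, against 28.2%). Most nearest genes thus had no call in a given direction, and nearness does not show that a peak acts on a gene. Without BDNF 1 h library A of the RNA, 6 nearest genes were called lower in place of 16.

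Among the genes within 50 kb of a member that rose most at BDNF 1 h, the first was Baiap2, which encodes IRSp53, a scaffold that links membranes to actin at the synapse. It had 446 to 551 scaled counts in controls (median 496), 4697 and 4585 at BDNF 1 h, 1447 and 1429 at 6 h, then 1100 and 1062 at 10 h. Its log2 fold change was 3.22 ± 0.08 (SE; limma adjusted p = 9.05e-19) at BDNF 1 h and 0.44 ± 0.08 at KCl 1 h (adjusted p = 6.22e-05). The difference between the stimuli at 1 h was 2.79 ± 0.09. Its RNA was still above all controls at 10 h, when the peak 48.7 kb inside the gene held 12.9 and 14.0 CPM, against 31.4 and 30.3 at 1 h and 6.26 to 15.2 in controls.

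Rtn4rl2, a relative of the Nogo receptor, had 427 to 529 scaled counts in controls (median 452), 1397 and 1439 at BDNF 1 h, 754 and 785 at 6 h, then 669 and 565 at 10 h. It rose by 1.60 ± 0.10 (SE; limma adjusted p = 1.43e-11) at BDNF 1 h, and its member, 2.42 kb upstream at chr2:84888715-84889543, held 19.6 to 30.6 CPM in controls (median 25.1), 56.5 and 55.6 at 1 h, then 35.9 and 34.0 at 6 h. Here RNA and accessibility were both above every control at 6 h as well, and the peak was called (0.52 ± 0.17, SE; edgeR adjusted p = 0.0315). Plekhg5 rose by 1.31 ± 0.09 (adjusted p = 3.51e-10) from 172 to 210 scaled counts (median 195) to 493 and 466, and stood at 223 and 223 at 10 h.

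In Tmcc3, Bach1 and Tet3 the RNA rose at BDNF 1 h and was near the control level by 6 h, when the Tmcc3 peak was still called higher. Tmcc3 had 390 to 445 scaled counts in controls (median 415), 1040 and 998 at BDNF 1 h, 429 and 411 at 6 h, then 423 and 394 at 10 h. At KCl 1 h it fell, to 280 and 292 (log2 fold change -0.54 ± 0.07, SE; limma adjusted p = 3.35e-06). Bach1, a transcriptional repressor regulated by heme, had 1040 to 1170 in controls (median 1091), 2398 and 2466 at BDNF 1 h, then 1076 and 985 at 6 h. Tet3, which oxidises methylated cytosine in DNA, had 2129 to 2418 in controls (median 2177), 3788 and 4236 at BDNF 1 h, then 2199 and 2130 at 6 h. In each of these genes both BDNF 1 h libraries were above all controls, which naming them for their rise at that time favours. The Tet3 member, at chr6:83440427-83440746 in an exon 1.09 kb from the start, held 22.5 and 27.9 CPM at BDNF 1 h and 6.03 to 13.6 in controls (median 10.1). The remaining genes that rose were Zfp516 (1.36 ± 0.15), Dbndd2 (1.00 ± 0.17), Inhbb, a subunit of activin B (0.74 ± 0.09), and 2410131K14Rik (0.55 ± 0.07).

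**Figure D5:**
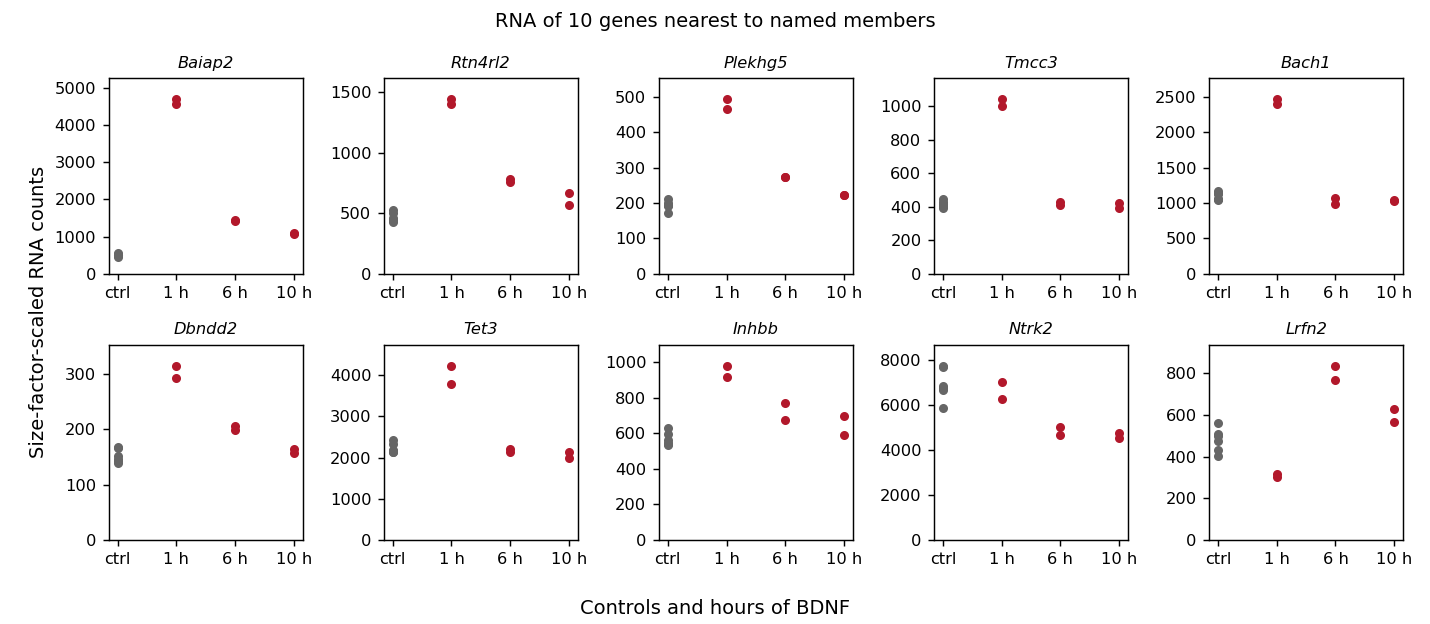
Scaled RNA counts (y axes from 0) of 10 genes nearest to named members in the 6 controls (grey) and the 2 libraries of each BDNF time (red). 8 genes rise at 1 h and are lower at 10 h, Ntrk2 does not rise, and Lrfn2 is below the controls at 1 h and above them at 6 h.

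Some nearest genes went the other way. Lrfn2, a synaptic adhesion molecule, had 405 to 561 scaled counts in controls (median 488), 315 and 300 at BDNF 1 h, then 767 and 837 at 6 h. It fell by 0.63 on the log2 scale at BDNF 1 h (SE 0.10; limma adjusted p = 3.1e-05) and rose by 0.74 at 6 h, while the member in its intron held 41.8 and 45.6 CPM at BDNF 1 h against 13.1 to 19.4 in controls (median 17.3). Hbp1, an HMG-box repressor, fell by 0.46 (SE 0.08; adjusted p = 8.78e-05), Mindy4 by 0.51, Rhpn1 by 0.52 and Trim7 by 0.52 (adjusted p = 0.0796). The call of Trim7 was lost under 4 other settings, and that of Rhpn1 against the 1 h controls alone and without library A. The Hbp1 member lies inside Prkar2b, and the nearest start is that of another gene.

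Ntrk2 RNA had no call at BDNF 1 h, when its intronic peak was highest. It had 5835 to 7734 scaled counts in controls (median 6796), 6239 and 7005 at BDNF 1 h, 4662 and 5018 at 6 h, then 4761 and 4537 at 10 h. The BDNF 6 h and 10 h libraries were below every control. The log2 fold change was -0.06 ± 0.09 (SE; limma adjusted p = 0.654) at 1 h, -0.51 ± 0.09 (adjusted p = 9.34e-05) at 6 h and -0.57 ± 0.09 (adjusted p = 3.87e-05) at 10 h. With KCl it was 0.11 ± 0.09 at 1 h (adjusted p = 0.299) and 0.37 ± 0.09 at 6 h (adjusted p = 0.000928).

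The pathway that leads from TrkB to the nucleus gave the setting of these values. Of 23 tested genes of the receptor and MAP kinase list, 11 rose and 3 fell at BDNF 1 h (median log2 fold change 0.12), and 7 rose and 6 fell at 10 h. Of 12 genes of its feedback inhibitors, 11 rose and 0 fell at 1 h (median 1.33), among them Dusp6, a phosphatase of ERK, by 2.92, and 10 rose at 10 h (median 0.70). The AP-1 list was wider than the FOS and JUN genes and also held Atf3, Maff, Mafg and Mafk among those tested. Of its 11 tested genes 11 rose at BDNF 1 h (median 2.23) and 10 at KCl 1 h (median 1.60). The rises of Mafg and Mafk at BDNF 1 h were small, at 0.34 and 0.35. The EGR and NAB list held Egr2, Egr3, Egr4, Nab1 and Nab2, and other EGR genes were not analysed here. All 5 rose at BDNF 1 h (median 5.41), and at KCl 1 h 4 rose and 1 fell (median 1.78). Nab2, which binds EGR proteins and represses their targets, was the one that fell: it had 61.7 to 85.0 scaled counts in controls, 844 and 814 at BDNF 1 h, and a log2 fold change of -0.51 at KCl 1 h (limma adjusted p = 0.013). Of 13 ETS and SRF genes, 7 rose and 1 fell at BDNF 1 h (median 0.40), and of 13 activity effectors 13 rose (median 2.101). The share of all genes called higher was 21.3% at BDNF 1 h, 21.1% at BDNF 10 h and 26.5% at KCl 1 h. The share called lower was 19.0%, 19.5% and 28.2%.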

How the data were processed

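Values came from cortical neurons in 18 ATAC-seq and 18 RNA-seq libraries, with groups from the labels. ATAC reads were placed on mm10 by the authors (bowtie2), and MACS2 peaks of single samples were merged by DiffBind. The deposited values are raw counts over 58177 peaks, without the LOESS scaling of the study. For RNA, the authors mapped reads with TopHat2, and the deposited values are a signal, gene counts divided by 1 size factor per library, from which whole reads were recovered (tolerance 0.01, 100% of values). All columns of these 2 tables were used. A pair of further deposited tables of the authors' fold changes and p-values were not used.

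The members, comparison peaks and gene lists were chosen with earlier results of these data known. Peaks with a mean of at least 10 were tested with edgeR 4.0.16 (quasi-likelihood, robust, LOESS offsets, 7 levels with the 6 controls as 1), genes with limma 3.58.1 (pseudocount 1, mean of at least 10, trend and robust), in R 4.3.3. DESeq2 1.42.0 was an alternative. Fold changes of RNA are on the log2(value + 1) scale, which understates changes of low genes. Nearest genes, host genes and motifs came from GENCODE M21 and the GRCm38 sequence, and 0 peaks lay beyond a chromosome end. Replicates differed by more than sampling noise (chi-square per degree of freedom 2.02 to 2.58 in ATAC and 2.43 to 39.0 in RNA, highest at KCl 6 h). Tests were tried on simulated data. Intervals and ratios cover counting error only where stated. Named members were the 10 with the highest BDNF 1 h ratio and both libraries above all controls, those within 50 kb of the 10 genes that rose and 5 that fell most at BDNF 1 h, up to 8 promoter members, the 3 highest and 3 lowest at BDNF 6 h, those nearest a listed gene, and the pairs beside each limit. Markers of microglia (3) and oligodendrocyte lineage (5) were listed with means of at least 10, and of 2 endothelial markers 1 was.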

Additional observations from a re-analysis of the deposited data

Results flagged for a closer look

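Among 49 sets of 6 control values tested, for named members and for genes near them, 2 held a library far from the other 5, where chance gives about 1 in 20. At the Syn2 member a control 6 h library held 9.84 CPM, and at the Ankrd60 promoter a control 10 h library held 12.4 CPM.

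For the 15 named genes near members, the BDNF response at 1 h was tested against that at 10 h by limma, a contrast added after the data were seen, and 10 differed at an adjusted p below 0.1, as did 33.9% of all 16209 genes tested. The 15 were named for the largest rises and falls at 1 h, so a difference from 10 h is favoured by their choice, and the values are a description. The RNA at 1 h was higher than at 10 h on the log2 scale by 2.101 for Baiap2, 1.92 for Zfp516, 1.32 for Tmcc3, 1.23 for Bach1, 1.205 for Rtn4rl2, 1.10 for Plekhg5, 0.96 for Tet3, 0.91 for Dbndd2 and 0.57 for Inhbb. For Lrfn2 the difference was -0.95.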

How the results depend on the processing

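The number of members depended on the minimum count and on the controls: 213 met the rule with a mean count of at least 10 (109 of the members among them), 18 with at least 50, 195 against controls of the same time, and 18 with a limit of 1.5 at BDNF 1 h. Leaving out 1 library at a time gave 96 to 151, and LOESS scaling gave 146, of which 99 were members. Members called at BDNF 6 h were 9 against controls of the same time and 5 at an adjusted p below 0.01, and 5 to 17 without 1 library. Peaks chosen without the 6 h controls gave 31 calls at an unadjusted p below 0.05 and 4 to 7 without 1 library.

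Nearest genes called higher at KCl 1 h were 20 at an adjusted p below 0.01. Those called lower at BDNF 1 h were 9 against controls of the same time, 6 at an adjusted p below 0.01 and 6 to 11 without 1 library. At that stricter limit 15 were lower at BDNF 6 h and 15 at BDNF 10 h, and without 1 library 17 to 19 were lower at BDNF 6 h. Within 50 kb, where 60 genes were tested in place of 91, those lower were 9, 15 and 16 at BDNF 1 h, 6 h and 10 h, and 14, 19 and 17 with KCl. Over whole peaks, which are longer, the AP-1 share was 39.5% of members, 60.2% of lasting, 88.5% of shared and 18.5% of all kept peaks, and that of the short EGR word 63.2%, 62.0%, 26.8% and 40.0%. The member near 2410131K14Rik reversed at BDNF 6 h, to 0.12, without library A, and was called at -2.18 without library B (edgeR adjusted p = 0.0784). With both libraries it was not called. Libraries of the other RNA groups were left out after the data were seen. Depth limits single members: with a median count of 8 in the shallowest KCl 6 h library, a gain there was hardly detectable. The causes of these changes were not tested.

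Whether the letters A and B of the RNA columns pair the samples is not given by the labels. Deviations of libraries with the same letter correlated by -0.31 to 0.42 (median 0.06). Such correlations cannot show whether libraries with the same letter shared a culture. With the letter as a replicate block, 33 nearest genes were higher and 16 lower at BDNF 1 h, in place of 32 and 16. No paired analysis was possible for ATAC because its columns carry no replicate number.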

Other observations

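Some members named for their course at BDNF 6 h, or for lying at a promoter, had nearest genes with a strong RNA response. Gse1, whose intronic member is 107 kb from its start, had 596 to 734 scaled RNA counts in controls, 1413 and 1670 at BDNF 1 h and 627 and 615 at 10 h (log2 fold change at 1 h 1.18 ± 0.11, SE; limma adjusted p = 3.82e-08). Prkx, 61.6 kb from its member, had 657 to 741 in controls, 1364 and 1294 at BDNF 1 h and 647 and 554 at 6 h, when the peak was still at 16.7 and 13.2 CPM. Sv2c, whose promoter peak was back at the control level by 6 h, had its highest RNA at that time, 563 and 541 against 90.6 to 145 in controls. Prkx and Gse1 were thus back near the controls in RNA by 10 h and Sv2c was not, at 324 and 324.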
